A study of Mus musculus with 12 samples.

Results

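The mRNAs of 10 intestinal selenoprotein genes were followed in ileum and colon of Slc39a8-IEC KO and control mice, in RNA of the mucosa. The genes were chosen by name, as Gpx1, Gpx2, Gpx3, Gpx4, Txnrd1, Txnrd2, Selenop, Selenow, Selenof and Selenom, and all 10 were found among the 53715 genes of the table. The question was whether deletion of the metal transporter gene Slc39a8 from the intestinal epithelium altered the expression of this family, and how the family differed between ileum and colon.

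Selenoproteins carry selenocysteine, an amino acid that is inserted at a UGA codon, which otherwise ends translation. Recoding needs a hairpin called the SECIS element in the untranslated end of the mRNA, the protein Secisbp2 that binds it, the elongation factor Eefsec and a dedicated tRNA. In the gut the best known members are glutathione peroxidases, which reduce hydrogen peroxide and lipid hydroperoxides, and thioredoxin reductases, which keep thioredoxin in its reduced form.

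The 12 libraries comprised 3 from control and 3 from KO mice in each tissue, all from 8-week-old male mice of the C57BL/6J strain. Control mice were labelled as homozygous for the floxed Slc39a8 allele (Slc39a8-fl/fl), an allele that the KO mice (Slc39a8-fl/fl:Villin-Cre) carry as well, whereas the methods of the study mix floxed mice with Villin-Cre and wild-type mice as controls. Cre recombinase is driven in the KO mice by the Villin promoter, which is active in epithelial cells, so deletion is limited to the epithelium while the RNA came from the whole mucosa. The labels do not state whether the ileal and colonic libraries came from the same mice. Values are given as CPM, the count of a gene relative to the size of its library after scaling with TMM factors.

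The 10 genes were compared first at the codon that defines them. Their coding sequences in GENCODE M21 (GRCm38) each held at least 1 in-frame TGA that the annotation marks as selenocysteine. The stretch around it is shown for 8 genes on the coding strand, with the TGA in capitals, because this codon is what the members share and the place at which their mRNAs must be recoded.
Gpx1: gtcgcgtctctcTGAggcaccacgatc
Gpx2: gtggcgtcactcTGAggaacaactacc
Gpx3: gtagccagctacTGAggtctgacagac
Gpx4: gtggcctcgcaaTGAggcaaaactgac
Txnrd1: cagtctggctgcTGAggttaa
Txnrd2: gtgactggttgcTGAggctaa
Selenop: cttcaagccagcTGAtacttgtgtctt
Selenom: acctgtggaggaTGAcagttgaatcgc

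In both thioredoxin reductases the TGA was the last codon but one, codon 612 of 613 in Txnrd1 and codon 526 of 527 in Txnrd2, and both were followed by a glycine codon and the stop. In the glutathione peroxidases it lay in the first part of the protein or near its middle. It was at codon 47 of 201 in Gpx1, codon 40 of 190 in Gpx2 and codon 73 of 226 in Gpx3. In the Gpx4 transcript used (Gpx4-201) it was at codon 129 of 253. The transcript with the longest complete coding sequence was used for each gene, and which forms the libraries held was not examined. Over the 27 bases shown, Gpx1 and Gpx2 had 21 in common, the highest number of the 6 pairs of glutathione peroxidases, and Gpx3 had 13 in common with each of them. Selenop, which carries selenium between tissues, held 10 such codons, the first at codon 59 and the last at codon 377 of 380. The first TGA of Selenop lies at chr15:3274848-3274850 on the plus strand, that of Gpx2 at chr12:76795256-76795258 on the minus strand and that of Selenom at chr11:3516273-3516275 on the plus strand.

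The libraries held between 16749138 and 27903083 expected counts. The genotype labels were checked by Slc39a8, which was at 5.22 to 8.39 CPM in the ileal control and 2.62 to 4.35 CPM in the ileal KO libraries, and at 20.1 to 20.8 CPM against 7.35 to 11.5 CPM in colon. Its KO to control ratio of means was 0.484 in ileum and 0.436 in colon, with no overlap of the groups. For both tissues together its adjusted p over all genes was 0.382 in edgeR, 1.25e-05 in DESeq2 and 0.0729 in limma-voom, and Slc39a8 was called under 5 of 24 alternatives, DESeq2 and limma-voom among them. The tissue labels were checked by Fabp6, the ileal bile acid binding protein, at 3362 to 7110 CPM in ileal and 5.76 to 26.8 CPM in colonic libraries, and by Car1, a carbonic anhydrase of the colon, at 14884 to 27124 CPM in colonic libraries. Among ileal libraries, Car1 reached 2632 CPM in KO replicate 2 and did not exceed 144 CPM in the rest, the lowest being at 3.40 CPM. The calls of Gpx2, Selenop and Selenom between the tissues were also made without ileal KO replicate 2, and the part of its Car1 transcripts in the results was not tested. The 7 epithelial markers were present in every library, at 18368 to 22732 CPM summed in ileum and 9051 to 10311 CPM in colon. Ileal control replicate 3 and ileal KO replicate 1 stood apart from the other ileal libraries, with summed smooth muscle markers at 34.2 and 20.2 CPM against 1814 to 2643 CPM. Because each genotype holds 1 of these libraries, results that rest on them are given with and without them.

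All 10 selenoprotein mRNAs passed the filter on low counts. The ranking of the members by level is given per kb of exon, because longer transcripts yield more counts. Selenop was the most abundant member in every group, at 1445 CPM per kb in ileal control, 1279 in ileal KO, 594 in colonic control and 543 in colonic KO libraries. In ileal control libraries it was followed by Gpx2 at 257 CPM per kb, by Gpx4 at 149.9, by Selenow at 105, by Gpx1 at 77.4 and by Selenof at 46.5. Selenom at 32.4, Gpx3 at 31.3 and Txnrd1 at 26.5 CPM per kb came next, and Txnrd2 was the lowest at 1.84.

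Only 3 of the 9 steps in this ileal order separated every library of one gene from every library of the next. These were the steps from Selenop to Gpx2 (5.62-fold by level per kb), from Selenof to Selenom (1.43-fold) and from Txnrd1 to Txnrd2 (14.4-fold). In colonic control libraries the order ran from Selenop through Gpx4, Selenow, Gpx1, Selenom, Selenof, Gpx2, Gpx3 and Txnrd1 to Txnrd2. Gpx2, at rank 2 in ileum, was thus at rank 7 in colon, at 34.6 CPM per kb, and Selenom went from rank 7 to rank 5. Neighbours in the middle of the colonic order, Selenom and Selenof (1.08-fold apart) and Selenof and Gpx2 (1.37-fold apart), overlapped between libraries.

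**Figure D1:**
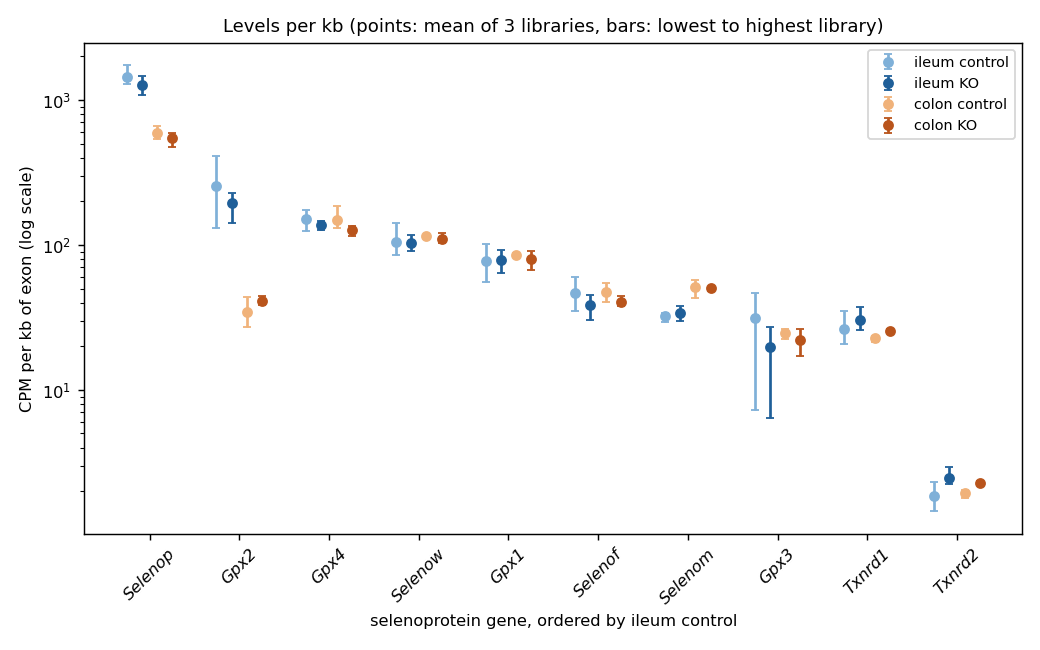
Level of each selenoprotein mRNA in CPM per kb of exon (log scale), with points for the mean of 3 libraries and bars from the lowest to the highest library, ordered by the ileal control group. Selenop leads in all 4 groups and Txnrd2 is lowest, while Gpx2 drops from 257 CPM per kb in ileal control to 34.6 in colonic control libraries.

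Selenop alone made up 50.2 to 61.6% of the summed level per kb of 24 selenoprotein genes in ileal control libraries and 51.7 to 63.2% in ileal KO libraries. In colon its share was 40.2 to 42.6% in control and 38.3 to 41.7% in KO libraries. The share of Gpx2 was 10.1% ± 5.21 (SD, n = 3) in ileal control and 2.44% ± 0.730 in colonic control libraries. No ileal library had a Selenop share as low as any colonic library.

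Ileum and colon differed for 3 of the 10 members. In control mice Gpx2 and Selenop fell from ileum to colon and Selenom rose, against 35.9% of all 16558 genes tested that were called in either direction (19.6% lower and 16.2% higher in colon). The same 3 members were called in KO mice, against 37.1% of all genes (20% lower and 17.1% higher). All 3 were called in both genotypes in 1 direction, beside 29.3% of all genes. The share of members called was thus near that of all genes. The median log2 difference between colon and ileum over the members was 0.01 in control and -0.04 in KO mice, beside 0.02 and 0.01 over all genes. The control and KO comparisons share no library. For the same 3 members the ileal and colonic libraries did not overlap, beside 40.7% of all genes in control and 50.4% in KO mice, and 32.8% in both genotypes and 1 direction.

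Gpx2, the glutathione peroxidase of the gastrointestinal epithelium, showed the largest tissue difference among the members. Its level in ileal control libraries was 750.3, 1315 and 420.3 CPM, against 105, 142 and 87.6 CPM in colonic control libraries. In KO mice it was 455, 676 and 739 CPM in ileum against 134, 123 and 142 CPM in colon. The ileal and colonic libraries were thus far apart, and even the lowest ileal library was well above the highest colonic one. The log2 difference of colon over ileum was -2.89 ± 0.37 (SE, n = 3 per group, edgeR adjusted p = 0.000151) in control mice, which corresponds to 7.42-fold by means. It was -2.23 ± 0.36 (edgeR adjusted p = 0.000809) in KO mice, or 4.68-fold.

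Selenop, the secreted selenium carrier, was also lower in colon. The ileal control libraries held 4960.1, 3641 and 3718 CPM and the colonic control libraries 1892, 1531 and 1645 CPM. The ileal KO libraries held 4171, 3649 and 3081 CPM and the colonic KO libraries 1695, 1590.3 and 1343 CPM. Every ileal library was above every colonic library. The log2 difference was -1.28 ± 0.19 (SE, edgeR adjusted p = 0.000485) in control and -1.24 ± 0.19 (adjusted p = 0.000618) in KO mice, and the ileal means were 2.43 and 2.36 times the colonic means. Selenop shares 439 bases of exon (15.4% of its exon length) with Ccdc152 on the opposite strand, and Ccdc152 held only 4 to 23 counts per library.

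Selenom, a thioredoxin-like protein of the endoplasmic reticulum, was the only member called higher in colon, and was so in both genotypes. It was at 50.1, 50.3 and 43.7 CPM in ileal and 85.2, 77.2 and 63.6 CPM in colonic control libraries. In KO mice it was at 44.2, 49.3 and 56.5 CPM in ileum and 71.5, 76.0 and 75.5 CPM in colon. The highest ileal library lay below the lowest colonic library. The log2 difference was 0.65 ± 0.13 (SE, edgeR adjusted p = 0.00366) in control and 0.57 ± 0.13 (adjusted p = 0.00773) in KO mice, or 1.57-fold and 1.49-fold by means.

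**Figure D2:**
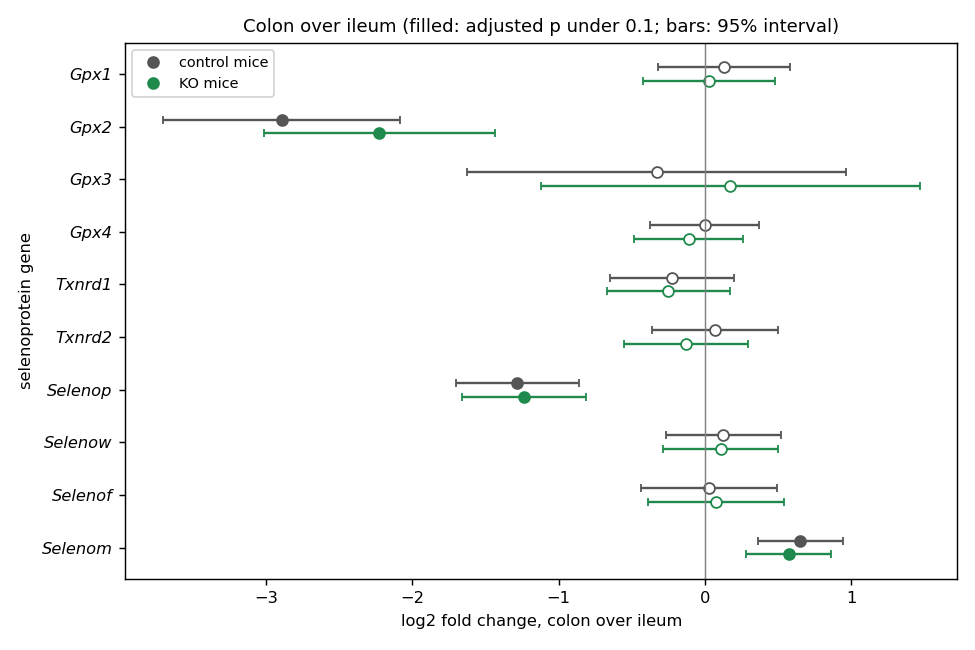
Log2 fold change of colon over ileum for each selenoprotein mRNA in control and KO mice, with 95% confidence intervals and filled points for an edgeR adjusted p under 0.1. Gpx2 at -2.89 and -2.23 and Selenop at -1.28 and -1.24 lie to the left of 0, and Selenom at 0.65 and 0.57 to the right.

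The other members showed no called difference between the tissues. For the ubiquitous cytosolic Gpx1, the lipid hydroperoxide peroxidase Gpx4, the cytosolic and mitochondrial reductases Txnrd1 and Txnrd2, the small redox protein Selenow and the endoplasmic reticulum protein Selenof, the log2 difference of colon over ileum lay between -0.23 and 0.13 in control mice, with 95% intervals that together reached from -0.65 to 0.58. In KO mice it lay between -0.25 and 0.11, with intervals from -0.67 to 0.54. Changes above 1.6-fold were thus outside the interval of each of these 6 genes in both genotypes, and smaller ones lay within it. Gpx3, the secreted peroxidase of plasma, had wide intervals, with a log2 difference of -0.33 (95% interval -1.62 to 0.96) in control and 0.17 (-1.12 to 1.47) in KO mice.

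Several cell type markers moved with the tissue as well. The summed epithelial markers were higher in every ileal than in every colonic library (above), in the direction of Gpx2 and Selenop and opposite to Selenom. The 4 Paneth cell markers were likewise higher, at 2737 to 9384 CPM in ileum and 13.4 to 369 CPM in colon. In the direction of Selenom, the 5 markers of enteric neurons and glia were at 0.835 to 12.5 CPM in ileum and 13.8 to 30.7 CPM in colon, with no overlap of the tissues. The 6 macrophage markers were at 43.5 to 129 CPM summed in ileum and 38.3 to 87.5 CPM in colon, where the tissues overlap. The 6 crypt markers were at 368 to 1369 CPM in ileum and 169 to 200 CPM in colon, and without Olfm4 at 247 to 618 CPM and 169 to 200 CPM. In whole mucosa, fewer cells of a type and less RNA per cell cannot be told apart, and the part of cell makeup in these tissue differences was not tested.

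**Figure D3:**
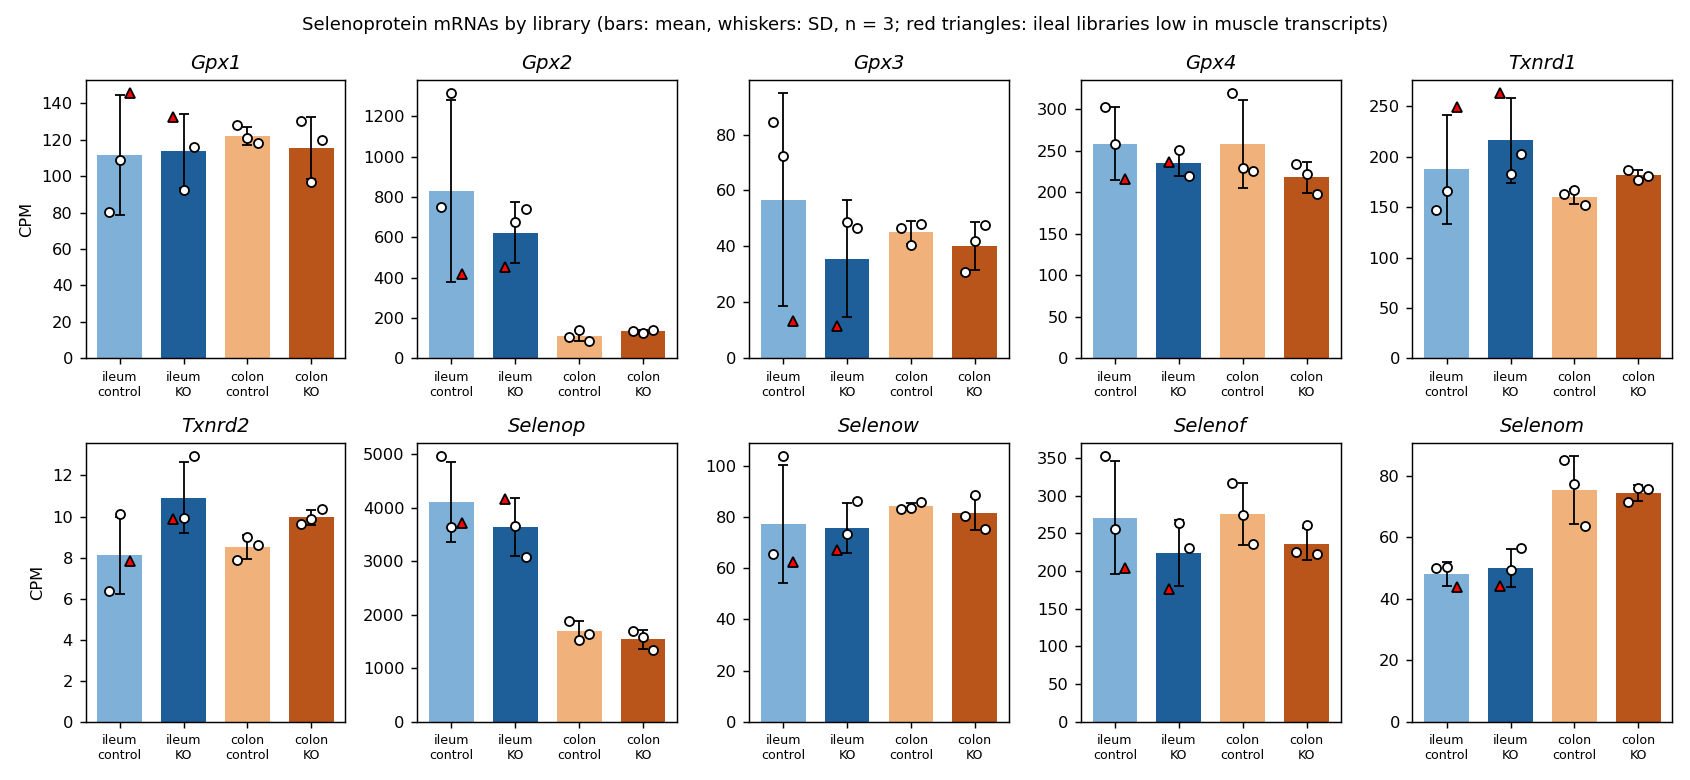
CPM of the 10 selenoprotein mRNAs in each of the 12 libraries, with bars for the mean of 3 libraries and whiskers for the SD, and red triangles for the 2 ileal libraries low in muscle transcripts. Gpx2 and Selenop are higher in all 6 ileal than in all 6 colonic libraries and Selenom is lower, while the red triangles lie lowest in ileum for Gpx3, at 13.3 and 11.5 CPM.

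Deletion of Slc39a8 was not accompanied by a called change of any selenoprotein mRNA. With both tissues in 1 model, edgeR called 0 of the 10 members, and 0% of all 16558 genes were called. One member, Txnrd2, was at an unadjusted p under 0.05, beside 3.87% of all genes (641). DESeq2 and limma-voom likewise called 0 members, with 4 and 1 genes called in all. In ileum and in colon, taken singly, edgeR again called 0 members and 0% of all genes. Txnrd2 alone was at an unadjusted p under 0.05 in ileum, beside 252 genes (1.52%), and 0 members were in colon, beside 385 genes (2.33%), while DESeq2 called 2 genes in ileum and 0 in colon, none of them a member. The median log2 difference of KO over control was -0.06 over the members and 0.00180 over all genes.

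Among the glutathione peroxidases, the log2 difference of KO over control over both tissues was -0.08 ± 0.25 (SE) for Gpx2, -0.41 ± 0.41 for Gpx3 and -0.19 ± 0.11 for Gpx4, whose processed pseudogene Gpx4-ps2 held 183 to 302 counts per library beside 3961 to 6408 for Gpx4. The sign for Gpx2 was not stable. Its value was 0.00977 when only library size was used, was also positive with limma-voom, and ranged from -0.18 to 0.18 with each library left out. The 95% interval of Gpx4, the peroxidase that protects membranes from ferroptosis, was -0.44 to 0.06. Gpx2 was -0.41 ± 0.34 in ileum and 0.26 ± 0.35 in colon, and the difference between the tissues, 0.67 (95% interval -0.40 to 1.74), had an unadjusted p of 0.198 in the edgeR model. In ileum the estimate for Gpx2 rested on control replicate 2, the library at 1315 CPM, and without it the log2 difference was 0.09 and the difference between the tissues 0.16. Over all single libraries left out, that difference ranged from 0.16 to 1.001 and the value in colon from 0.12 to 0.47.

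The thioredoxin reductases were the members with the most separated genotypes in colon. Txnrd2, the mitochondrial enzyme, was at 7.88, 9.02 and 8.61 CPM in colonic control and 9.66, 9.89 and 10.4 CPM in colonic KO libraries. In ileum it was at 6.39, 10.1 and 7.82 CPM in control and 9.90, 9.93 and 12.9 CPM in KO libraries. Its KO libraries lay above the control libraries in colon, while 1 ileal control library, at 10.1 CPM, lay above 2 of the ileal KO libraries. Over both tissues the log2 difference of Txnrd2 was 0.33 ± 0.13 (SE, 95% interval 0.04 to 0.62, unadjusted p = 0.0291 and adjusted p = 0.998 in edgeR). It was 0.43 ± 0.19 in ileum (0.0014 to 0.86) and 0.23 ± 0.19 in colon (-0.20 to 0.66). The gene held only 96 to 273 counts per library, the fewest of the members.

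Txnrd1, the cytosolic enzyme, was at 163, 167 and 152 CPM in colonic control and 187, 177 and 181 CPM in colonic KO libraries. Its colonic groups did not overlap, with KO above control, as for Txnrd2. These 2 were the only members whose genotypes were apart in colon, against 12.8% of all genes, and no member was apart in ileum, against 3.7% of all genes. The log2 difference of Txnrd1 was 0.18 ± 0.19 in colon, 0.20 ± 0.19 in ileum and 0.19 ± 0.13 (95% interval -0.09 to 0.47) over both tissues, none with an edgeR adjusted p under 0.998. With single libraries left out, the ileal value ranged from 0.04 without KO replicate 1 to 0.47 without control replicate 3, the 2 libraries low in muscle transcripts, and the colonic value from 0.14 to 0.21.

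None of the remaining members was called between the genotypes either. Selenop was at -0.15 ± 0.13 (SE) over both tissues on the log2 scale and Selenof at -0.25 ± 0.14 (95% interval -0.56 to 0.06), while Gpx1, Selenow and Selenom lay between -0.04 and 0.02, with intervals from -0.33 to 0.27. Within the tissues, Gpx1, Gpx4, Selenop, Selenow, Selenof and Selenom ranged from -0.28 to 0.06 in ileum and from -0.24 to -0.02 in colon. Gpx3 was at -0.67 ± 0.59 in ileum (95% interval -1.96 to 0.63) and -0.16 ± 0.59 in colon (-1.45 to 1.13). The ileal value ranged from -1.14 without control replicate 3 to -0.25 without KO replicate 1, and the colonic value from -0.29 without KO replicate 3 to -0.02 without KO replicate 1. The difference of the genotype effect between the tissues was called for 0 members and 0% of all genes (edgeR), with 0 members and 169 genes (1.02%) at an unadjusted p under 0.05 and 1 gene called by DESeq2.

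**Figure D4:**
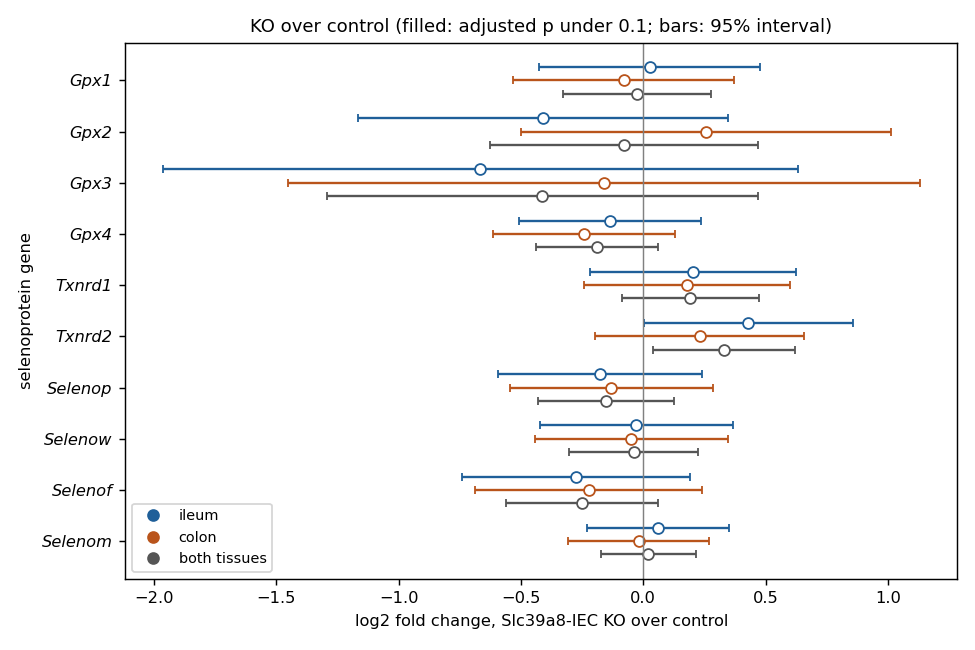
Log2 fold change of Slc39a8-IEC KO over control for each selenoprotein mRNA in ileum, in colon and over both tissues, with 95% confidence intervals and filled points for an edgeR adjusted p under 0.1, of which there are none. The interval over both tissues lies above 0 for Txnrd2 alone, from 0.04 to 0.62, and spans 0 for the other 9 genes.

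Within the ileum, 6 of the 10 members separated the 2 libraries low in muscle transcripts from the other 4, 2 of them higher and 4 lower in the pair. Of all 16558 genes tested, 50.4% separated the same libraries (23.2% higher and 27.2% lower), so the share of members was near that of all genes. Gpx3 was at 13.3 and 11.5 CPM in the pair, against 46.4 to 84.5 CPM in the others, a ratio of means of 0.196. Gpx2 was at 420.3 and 455 CPM against 676 to 1315 CPM, Selenof at 204 and 176 against 231 to 352 CPM, and Selenom at 43.7 and 44.2 against 49.3 to 56.5 CPM. Gpx1 was higher in the pair, at 146 and 133 against 80.5 to 116 CPM, as was Txnrd1, at 249 and 263 against 148 to 203 CPM. Gpx4, Txnrd2, Selenop and Selenow overlapped. The division was made after the values were seen, and no test is given.

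Other markers moved with the same 2 libraries. The 6 fibroblast markers were at 43.3 and 40.8 CPM against 313 to 599 CPM in the other ileal libraries, the 6 macrophage markers at 51.1 and 43.5 against 83.1 to 129 CPM, and the 5 markers of enteric neurons and glia at 0.892 and 0.835 against 8.29 to 12.5 CPM. The crypt markers were higher, at 1369 and 973 against 368 to 505 CPM, and so were the 4 Paneth cell markers, at 9384 and 7303 against 2737 to 3612 CPM. The 5 goblet cell markers were also higher in the pair, at 12260 and 12421 against 9109 to 9883 CPM. So were the 4 endothelial markers, at 13.3 and 11.03 against 4.46 to 10.1 CPM. The 4 plasma cell markers were lower, at 549 and 547 against 839 to 1335 CPM. The epithelial markers, at 18368 and 19226 CPM, were close to the 18984 to 22732 CPM of the others. The part of these cell types in the levels of Gpx3, Gpx2, Txnrd1 and the other members was not tested.

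Without these 2 libraries, left out after the values were seen, the tissue difference of Gpx3 changed its call in control mice. Its level in the remaining ileal control libraries was 84.5 and 72.4 CPM, against 46.4, 40.5 and 48.1 CPM in colonic control libraries. The log2 difference of colon over ileum was -0.82 (edgeR adjusted p = 0.0030, DESeq2 adjusted p = 0.000192). With all 12 libraries, 35.9% of all genes tested were called in this comparison. In KO mice the remaining ileal libraries, at 48.9 and 46.4 CPM, were close to the colonic ones at 30.9, 42.0 and 47.7 CPM, and the log2 difference was -0.24 (edgeR adjusted p = 0.308). Gpx2 kept its tissue difference without the pair, with a log2 value of -3.23 in control and -2.40 in KO mice, and both low libraries were above every colonic library. For the genotypes, the KO to control ratio of Txnrd2 was 1.27 between the 2 low libraries and 1.39 between the other ileal libraries. That of Gpx3 was 0.868 and 0.607, and that of Gpx2 was 1.08 and 0.685.

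**Figure D5:**
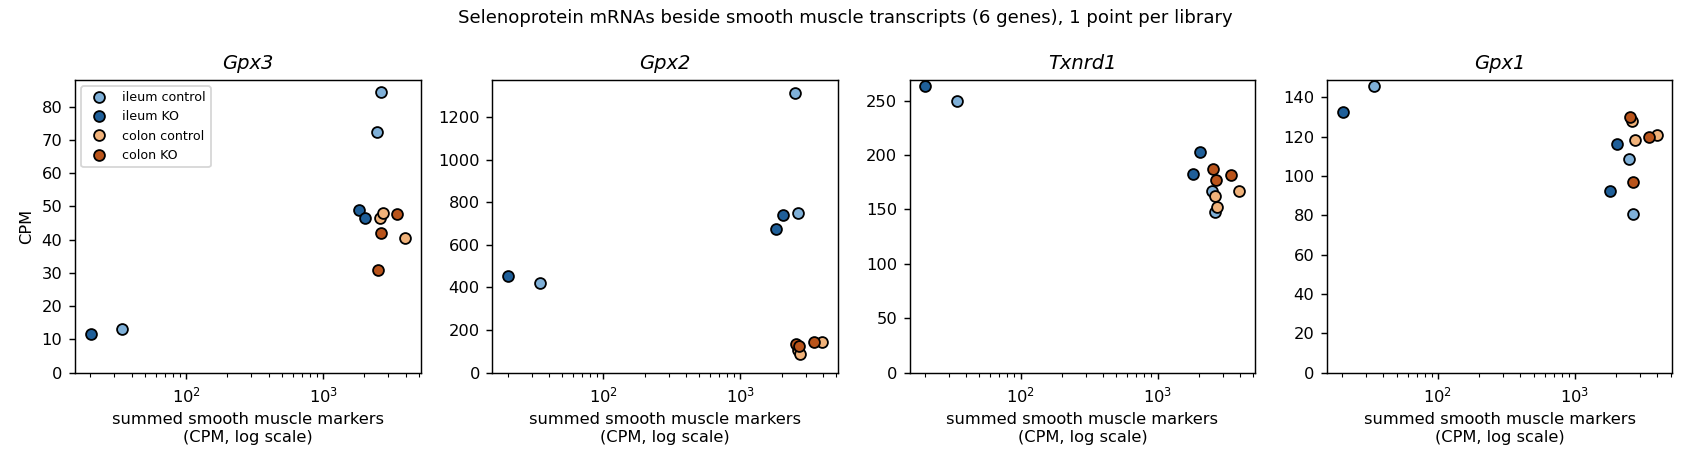
CPM of Gpx3, Gpx2, Txnrd1 and Gpx1 in each library against the summed CPM of 6 smooth muscle markers (log scale), with 1 point per library and colours for the 4 groups. The 2 ileal libraries at 34.2 and 20.2 CPM of muscle markers hold the lowest Gpx3 levels of all 12 libraries and the highest Txnrd1 and Gpx1 levels.

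Of the other selenoproteins, 12 of 14 were tested, and Dio3 and Selenov did not pass the filter. In control mice 2 were higher in colon and 4 were lower. Dio1, which activates thyroid hormone, was at 86.4 ± 24.2 CPM (SD, n = 3) in ileal and 187 ± 45.4 CPM in colonic control libraries (log2 difference 1.11, edgeR adjusted p = 0.0173). Selenoi, an enzyme of phosphatidylethanolamine synthesis, was at 209.6 ± 10.7 and 55.9 ± 7.81 CPM (log2 difference -1.91, adjusted p = 8.78e-07). Both calls were also made in KO mice and under every alternative. Dio2 rose as well, from 2 to 10 counts per ileal to 9 to 25 counts per colonic control library, and Selenoh, Selenot and the selenophosphate synthetase Sephs2 fell by 0.86, 0.35 and 0.75 on the log2 scale. The calls of Selenot and Sephs2 were lost when only library size was used for scaling, and so was that of Selenoh. In KO mice the same 6 were called, together with Selenoo and Txnrd3, which were higher in colon by 0.36 and 0.52 on the log2 scale.

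Of the 7 genes for selenocysteine synthesis and insertion, 1 was higher and 1 lower in colon in control mice. Pstk, the kinase that acts on the charged tRNA, was at 7.81 ± 0.97 CPM (SD, n = 3) in ileum and 11.4 ± 2.11 CPM in colon, and Sephs1 at 29.6 ± 7.77 and 20.4 ± 2.05 CPM (adjusted p = 0.0518 and 0.0629, edgeR). Neither was called in KO mice, where Eefsec was lower in colon by 0.66 on the log2 scale. Of the 3 genes for selenium uptake and recycling, Scly, the lyase that releases selenium from selenocysteine, was lower in colon, at 17.9 ± 0.792 CPM in ileum and 9.14 ± 0.752 CPM in colon of control mice (log2 difference -0.97, adjusted p = 0.00189). Lrp8 and Lrp2, receptors for the Selenop protein, were not called. Of the cysteine-type glutathione peroxidases, Gpx7 and Gpx8 were tested and not called, and Gpx5 and Gpx6 did not pass the filter.

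Among the 6 partners of the glutathione and thioredoxin systems, 3 were higher and 1 lower in colon of control mice. Gclc and Gclm, the subunits of the enzyme that starts glutathione synthesis, rose from 62.2 ± 32.3 to 135 ± 23.4 CPM and from 70.7 ± 21.5 to 116 ± 4.95 CPM (SD, n = 3). Gss, which completes it, rose from 145 ± 9.99 to 187 ± 4.60 CPM. Gsr, which returns oxidised glutathione to the reduced form, fell from 185 ± 72.1 to 57.0 ± 4.73 CPM (log2 difference -1.70, edgeR adjusted p = 0.000455) and was called in KO mice too, at -1.58. In KO mice Gclm and Gss were again higher, Txn1 was lower by 0.79 on the log2 scale, and Gclc was not called. The calls of Dio2, Selenot, Sephs2, Pstk, Sephs1, Gclc and Gclm in control mice each rested on single libraries and were lost under 3 to 11 of the alternatives, as were those of Dio2, Selenoh, Selenoo, Selenot, Sephs2, Txnrd3, Eefsec and Gclm in KO mice, under 2 to 17. No gene of these lists was called between the genotypes in either tissue, over both tissues or in the difference between tissues.

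The genes most like each member were sought by the correlation of log2 CPM over the 12 libraries, among 8677 genes compared. The 12 libraries share tissue, genotype and muscle content, so r is a description only. Gpx2 was closest to Ddhd1 and Spcs2 (r = 0.99 for both), Selenop to Agmo and Serpinb1a (0.98 for both) and Selenom to Fastk and Art2a-ps (0.98 for both). Txnrd1 was closest to Hsp90ab1, a heat shock protein, and Nomo1 (0.98 and 0.97). Selenof was closest to Commd3 (0.98). The nearest genes of Gpx1, Gpx4, Txnrd2 and Selenow reached only 0.90 to 0.92.

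The promoters were searched for TGACNNNGC, the core of the antioxidant response element bound by Nrf2, on both strands from 250 bases before to 50 bases after each start in RefSeq (GRCm38.p6). Of 32851 promoters in the table, 4071 (12.4%) held it. Of the 10 members, which have 17 promoters there, it was in 1 promoter of Txnrd1, on chromosome 10, with its first base at -92 from the start of transcription. The stretch is tggatttttGCTTTGTCAttctgacac on the strand of the gene, with the match, which is on the other strand, in capitals. It is shown as the only match among the 17 promoters of the members, a share that is not above that of all promoters.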

How the data were processed

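RNA of ileal and colonic mucosa was sequenced in 12 libraries, 3 per genotype and tissue, grouped by the sample labels. The authors aligned reads with STAR and deposited 1 table of expected counts, estimated read numbers per gene, not always whole and not normalized. The reporting summary of the study names UMI-tools for removal of duplicates and FeatureCounts as the counter, without a strand setting. The sources used here do not say whether FeatureCounts made these values, some of them not whole, and reads of overlapping genes and pseudogenes such as Gpx4-ps2 (183 to 302 counts) may have been divided. Of the values, 93.7% were whole within 0.005. The 92 spike-in lines summed to 0 and were left out. Of 53715 gene identifiers, 53620 had a symbol, and GENCODE M21 held 51464 of them in the same version.

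Expected counts were rounded. In edgeR 4.0.16 (R 4.3.3), genes were filtered by filterByExpr over the 4 groups, which left 16558, and scaled by TMM factors. Adjusted p-values are those of the quasi-likelihood test after Benjamini-Hochberg correction across all 16558 genes, and a gene was called under 0.1. Genotype over both tissues had tissue as an additive term. All other comparisons are contrasts of a 4-group model. The 12 libraries were taken as independent. Standard errors were calculated from the log2 difference and the F statistic of the edgeR test, and 95% intervals from these errors. The p-values weigh a difference against the spread between libraries of the same group, estimated over all groups together. In the model with tissue as an additive term, that spread also holds any difference of the genotype effect between tissues. CPM per kb used the union of exons in GENCODE M21, and log2 CPM a prior count of 2. The steps were tested on simulated data. Genes named are the members, Slc39a8, and genes of the fixed lists called between tissues in control mice or in KO mice. Some list genes that were not called or not tested are named as well. So are single marker genes, an overlapping gene and a pseudogene. For each member the 2 genes with the highest correlation are named at most. Some marker, neighbouring and correlated genes are not reported here. Members and lists were chosen with earlier results of these data known.

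Alternatives were DESeq2 1.42.0, limma-voom (limma 3.58.1), RLE, upper-quartile or no scaling factors, other filters, unrounded counts, a threshold of 0.05, the replicate number as a block, only the libraries compared, and each library left out. Leaving out the pair of ileal libraries low in muscle transcripts was added after the data were seen. Figures used Python 3.11.15, pandas 2.3.3 and matplotlib 3.10.9.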

Additional observations from a re-analysis of the deposited data

How the results depend on the processing

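The tissue calls of Gpx2, Selenop and Selenom held in both genotypes under all 25 alternatives, and no member was called in a genotype comparison under any. When single libraries were left out, the log2 difference of colon over ileum ranged from -3.23 to -2.39 for Gpx2 in control mice and from -2.41 to -2.09 in KO mice. Of 24 member values given singly, 4 changed sign somewhere, all of them not called. Gpx2 over both tissues was 0.0060 with limma-voom, 0.00977 with library size only, and -0.18 to 0.18 with each library left out, and in ileum -0.73 to 0.092. Gpx3 between tissues was 0.098 in control mice with limma-voom and -0.82 to 0.072 with each library left out, and in KO mice -0.25 to 0.47 with each library left out, -0.24 without the muscle-poor pair and -0.26 without it in DESeq2. Selenow was called once, higher in colon of control mice without ileal control replicate 2 (0.39, edgeR adjusted p = 0.0497). Members not given singly in a comparison changed sign more often. Between tissues the sign changed under some alternative for 6 of 6 in control and 5 of 6 in KO mice. Between genotypes it changed for 3 of 6 in ileum, 3 of 6 in colon and 3 of 3 over both tissues. For the difference between tissues it changed for 7 of 9. Of 27 tissue calls of other listed genes, 10 held under every alternative, 17 were lost under some and 0 changed sign. The split of all tissue calls moved with the scaling, from 2689 higher and 3251 lower in colon of control mice to 4156 and 2102 with library size only, which raised the median of all genes from 0.02 to 0.24, and to 3373 and 2741 with upper-quartile factors. In KO mice it moved from 2837 and 3312 to 4637 and 1908 (median 0.01 to 0.29) and to 3678 and 2634.

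Over both tissues 4 genes were called between genotypes by DESeq2, 1 by limma-voom, 0 to 1 with each library left out (1 without ileal control replicate 3 and 1 without ileal KO replicate 1), 5 without the muscle-poor pair and 161 without it in DESeq2. In ileum these counts were 2, 1, 0 to 1 (1 without ileal KO replicate 1), 3 and 26. In colon 1 gene was called from its libraries alone and 23 without the pair in DESeq2. The difference between tissues had 1 call in DESeq2 and 3 without the pair. The cause was not tested.

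Whether the replicate numbers pair the libraries was left unsettled. Of 18 same-numbered pairs, 5 had deviations from the group means correlated above 0.1. Most of the 18 pairs were across genotypes and thus not from the same mouse. The highest r, 0.40, was of this kind, between replicate 2 of ileal control and of ileal KO. Of the 12 libraries, 7 were closest to their own number in the other tissue of the same genotype. Same-numbered ileal and colonic libraries had r of 0.19, 0.05 and 0.25 in KO mice and -0.05, 0.16 and -0.08 in control mice. With the replicate block, 5573 genes were called between tissues in control and 5886 in KO mice and 0 between genotypes, with 3, 3 and 0 members. With the longest transcript in place of the union of exons, Gpx2 was at rank 3 in ileal KO and rank 8 in both colonic groups. In ileal control libraries Gpx2 and Gpx4 were then close, at 262 and 260 CPM per kb. Selenom moved to rank 9 in ileal control and rank 6 in colonic control libraries, and Txnrd1 to rank 7 in both. The order of the members thus depends in part on the length used.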
